A study of Mus musculus with 24 samples.

Results

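The 3 libraries of LKB1-deficient mouse fibroblasts stimulated with IL-1β were compared with the 3 libraries of stimulated wild-type fibroblasts, 6 of the 24 libraries of an RNA-seq series. All cells were 3T3 MEFs, immortalized mouse embryonic fibroblasts. The wild-type cells and the *Lkb1*-/- cells each came from 1 immortalized line, so that loss of LKB1 and other differences between the lines cannot be told apart, and the replicates of a group are libraries of 1 line. IL-1β was given at 0.1 ng/mL for 6 hours in both groups, and no other agent is named for either. Untreated libraries of the same lines, 3 each, are given beside the stimulated ones, and all 24 libraries, including those of double-knockout clones not described here, were fitted together, with a common estimate of the spread. Of 55471 genes in the count tables, 17522 passed the filter on low counts and were tested.

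LKB1 is a serine/threonine kinase and tumor suppressor that activates AMPK and a family of related kinases, among them the salt-inducible kinases (SIKs). SIKs phosphorylate the CRTC coactivators and keep them out of the nucleus, and unphosphorylated CRTCs bind CREB at cyclic AMP-responsive genes. IL-1β signals through its receptor, the adaptor MyD88 and IRAK and TRAF6 proteins to NF-κB and AP-1, which drive cytokine and chemokine transcription in fibroblasts. The question asked of these libraries was how the transcript levels of IL-1β-stimulated cells differ with and without LKB1.

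Counts on genes lay between 38842901 and 48594394 per stimulated library. Levels are given as CPM, read counts over the TMM-scaled library size, replicates 1 to 3 in order, and a gene was called at a Benjamini-Hochberg false discovery rate (FDR) under 0.05 in edgeR's quasi-likelihood test. Replicate 1 stood apart from replicates 2 and 3 in both groups. The counts of replicate 1 differed from those of the other two by a chi-square of 55.5 to 73.1 per gene, whereas replicates 2 and 3 differed by 7.46 in the *Lkb1*-/- group and by 13.2 in the wild-type group. All of these are above sampling noise, so that no library was a repeat of another.

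Most of the transcriptome differed between the stimulated lines. Of the genes tested, *Lkb1*-/- MEFs had 5299 (30.2%) called higher and 4751 (27.1%) called lower, and 7472 were not called. A change of over 1 on the log2 scale was reached by 2867 higher genes (16.4%) and 1413 lower genes (8.06%), so that the larger changes went upward more often than downward. The 2867 became 2804, and the 1413 became 1412, when genes without a read in 1 group were given the smallest change that 3 counts per library allow. With replicate 1 left out of every group, 10511 genes were called in place of 10050, and 4201 in place of 4280 passed both conditions. The split between higher and lower genes moved with the counting and the scaling, to 4830 and 5169 with unstranded counts and to 6252 and 3978 with upper quartile normalization. The median log2 fold change of all genes tested was 0.03, and 0.14 with upper quartile normalization, a shift against which small changes must be read. Counts of genes in a group are to be read beside these shares.

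The share called in each direction differed with the level of the gene. Among the 3716 genes with a mean log2 CPM under 0 over the 6 libraries, 29.2% were called higher and 8.61% lower. Among the 3911 genes with a mean above 6, 21.1% were called higher and 44.5% lower. A rare gene could pass the filter on low counts through the 1 group in which it was high, so the shares of the rarest class depend on that filter, and with at least 10 counts required in every library the genes called and changed by over 1 numbered 2043, beside 4280.

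**Figure D1:**
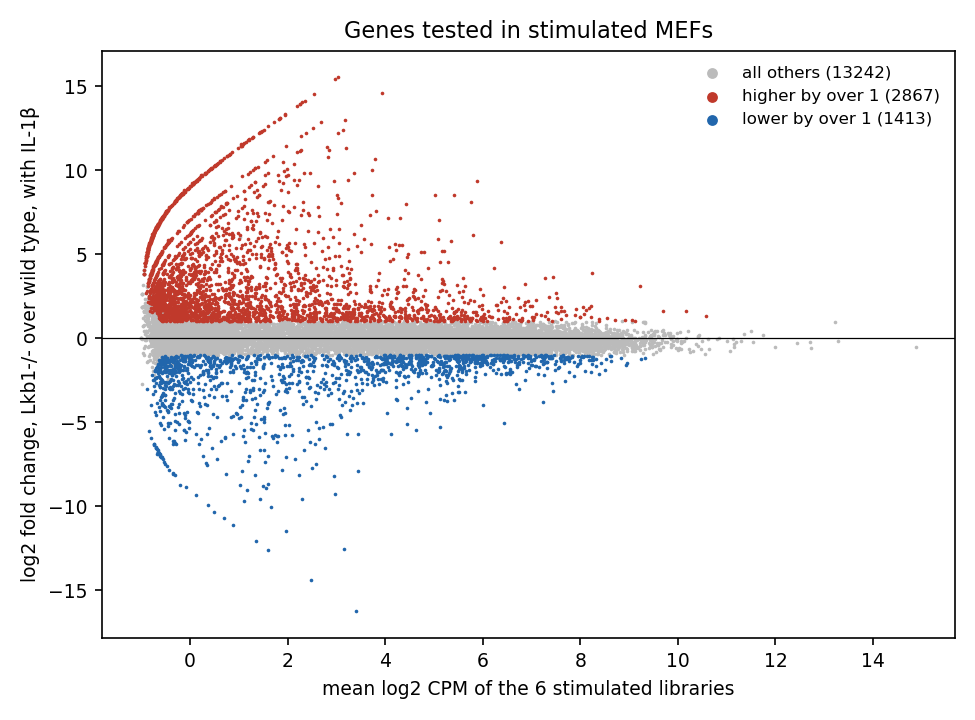
Log2 fold change of stimulated *Lkb1*-/- over stimulated wild-type MEFs against the mean log2 CPM of the 6 libraries, 1 point per gene tested. Red points were called higher by over 1 on the log2 scale (2867 genes), blue points lower by over 1 (1413 genes) and grey points are all others. The red points spread further from the middle than the blue ones, and most of the largest changes are at a low mean level.

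*Stk11*, the gene of LKB1 (chromosome 10, 80115803 to 80130682 of GRCm38), was counted at 17.2, 16.9 and 16.3 CPM in the *Lkb1*-/- libraries and at 86.3, 83.4 and 84.4 CPM in the wild-type libraries. The groups did not overlap, and the log2 fold change was −2.34 ± 0.0702 (SE) at an edgeR FDR of 1.0e-16. Reads on the gene thus remained in the knockout, and gene-level counts do not show which exons they cover. The genes of LKB1's binding partners were lower by less. *Cab39*, which encodes the scaffold MO25α, had a log2 fold change of −0.41 and *Cab39l*, its paralog, of −0.80, and both were called. The pseudokinase genes *Strada* and *Stradb* had values of −0.26 and −0.15, of which the first was called, and it was not called with upper quartile normalization (−0.16) or without replicate 1 of every group (−0.21).

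Of the 14 kinase genes whose products LKB1 activates, 13 were tested, 3 were called higher and 7 lower, with a median log2 fold change of −0.28. The catalytic AMPK subunits were not called, with 163 ± 11.8 CPM (SD, n = 3) against 178 ± 5.84 CPM for *Prkaa1* (log2 fold change −0.13) and −0.18 for *Prkaa2*. *Prkaa1* was called lower with the replicate block (−0.13), with unstranded counts (−0.175), without *Lkb1*-/- replicate 3 (−0.18) and without wild-type replicate 3 (−0.16). The SIK genes went in both directions. *Sik1*, itself a CREB target, rose from 30.04, 29.2 and 33.2 CPM in the wild-type libraries to 39.4, 48.2 and 53.2 CPM, a change of 0.61 ± 0.139 (SE) on the log2 scale at an edgeR FDR of 7.6e-04. *Sik2* and *Sik3* fell, by log2 fold changes of −0.51 and −0.50. The largest falls were in *Nuak2* (−1.87), *Snrk* (−1.39) and *Nuak1* (−1.12), the last of which is an AMPK-related kinase with a role in cell adhesion. Among the polarity kinases, *Mark2* and *Mark3* fell by less, to log2 fold changes of −0.28 and −0.41, and *Mark4* was called only with the replicate block (0.14) or upper quartile normalization (0.24). *Brsk1* rose from 8.27, 9.199 and 6.75 CPM to 22.96, 22.2 and 23.6 CPM, and *Mark1* was found with 1 read in the wild-type libraries together against 112 in the *Lkb1*-/- libraries. *Brsk2* had at most 3 counts in a library and was not tested.

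Genes of the CREB pathway were mostly higher. Of 9 CREB factors and coactivators, 6 were called higher and 2 lower, with a median log2 fold change of 0.22. *Creb5* rose most (2.12), followed by *Crtc1* (1.04), whereas *Crtc2* rose by 0.35 and *Crtc3* and *Creb1* fell by log2 fold changes of −0.54 and −0.47. Of 16 genes listed as CREB targets, 12 were called higher, 10 of them by over 1, and 1 was called lower, with a median of 1.53. *Nr4a2*, a nuclear receptor induced by cyclic AMP, was counted at 21.1, 23.4 and 28.3 CPM in the *Lkb1*-/- and 8.15, 8.57 and 9.15 CPM in the wild-type libraries, a change of 1.49 ± 0.202 (SE) on the log2 scale at an edgeR FDR of 1.9e-06. *Nr4a1*, its relative, rose by 1.02. *Inhba*, the subunit of activin A, stood at 129, 104 and 120.5 CPM against 2.57, 1.96 and 2.66 CPM (log2 fold change 5.62 ± 0.152, edgeR FDR = 3.5e-17). *Pde10a*, a phosphodiesterase that breaks down cyclic nucleotides, had no read in the 3 wild-type libraries and 45.5 ± 3.71 CPM (SD, n = 3) in the *Lkb1*-/- libraries, at least 616-fold higher on the assumption of 3 counts in each library without a read. The coactivator gene *Ppargc1a* likewise had no wild-type read and was at least 26.6-fold higher. *Bdnf* was the 1 member called lower (−0.83). These values were close to those of the untreated libraries, where the list had a median of 1.56, and in edgeR's test of the difference between stimulated and untreated cells 3 members had an unadjusted p under 0.05, of which 0 were called after adjustment, 0 by DESeq2 and 1 with the replicate number as a block.

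The IL-6 family of cytokines signals through gp130 and was higher as a group. Of its 8 ligand genes, 7 were tested, 6 were called higher, 4 of them by over 1, and 1 was not called, with a median log2 fold change of 1.80 beside 0.03 over all genes. *Il6*, the inflammatory and acute-phase cytokine, was counted at 122, 109 and 125 CPM in the *Lkb1*-/- and at 2.49, 4.44 and 4.24 CPM in the wild-type libraries. All *Lkb1*-/- libraries lay far above all wild-type ones, and the log2 fold change was 4.99 ± 0.251 (SE) at an edgeR FDR of 4.2e-13. *Il11*, a cytokine of stromal cells, was at 21.5, 17.9 and 24.6 CPM against 1.38, 1.401 and 0.724 CPM. Its groups did not overlap either, with a change of 4.18 ± 0.298 (SE) on the log2 scale at an edgeR FDR of 1.2e-10. *Lif*, leukemia inhibitory factor, was at 81.01, 67.9 and 80.8 CPM against 22.2, 20.6 and 23.1 CPM, a change of 1.80 ± 0.147 (SE) on the log2 scale at an edgeR FDR of 9.3e-10. In untreated cells the median of the ligands was 1.08, with *Il6* at 3.96, *Il11* at 3.34 and *Lif* at −0.44. Of these ligands only *Lif* was called by edgeR in the test of the difference between stimulated and untreated cells.

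Not all ligands of the family are named here. *Clcf1*, a cardiotrophin-like cytokine, rose from 26.9, 17.9 and 18.8 to 48.5, 33.5 and 35.05 CPM, a change of 0.88 ± 0.245 (SE) on the log2 scale at an edgeR FDR of 0.00419. *Cntf*, ciliary neurotrophic factor, rose by 0.81. *Ctf1*, which encodes cardiotrophin, overlapped between the groups and was not called (−0.25, edgeR FDR = 0.16), but was called lower without *Lkb1*-/- replicate 3 (−0.42). *Osm* had at most 1 count in a library and was not tested. Of the 6 receptor genes of the family, 3 were called higher and 1 lower. The shared subunit *Il6st* (gp130) was not called (0.22), but was called higher with the replicate block (0.21), with upper quartile normalization (0.32) and without replicate 1 of every group (0.29). *Osmr* rose by 2.40, from 37.8, 49.2 and 49.7 CPM to 216, 262 and 246 CPM, and *Il11ra1* rose by 0.97, whereas *Il6ra* fell by a log2 fold change of −0.95.

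**Figure D2:**
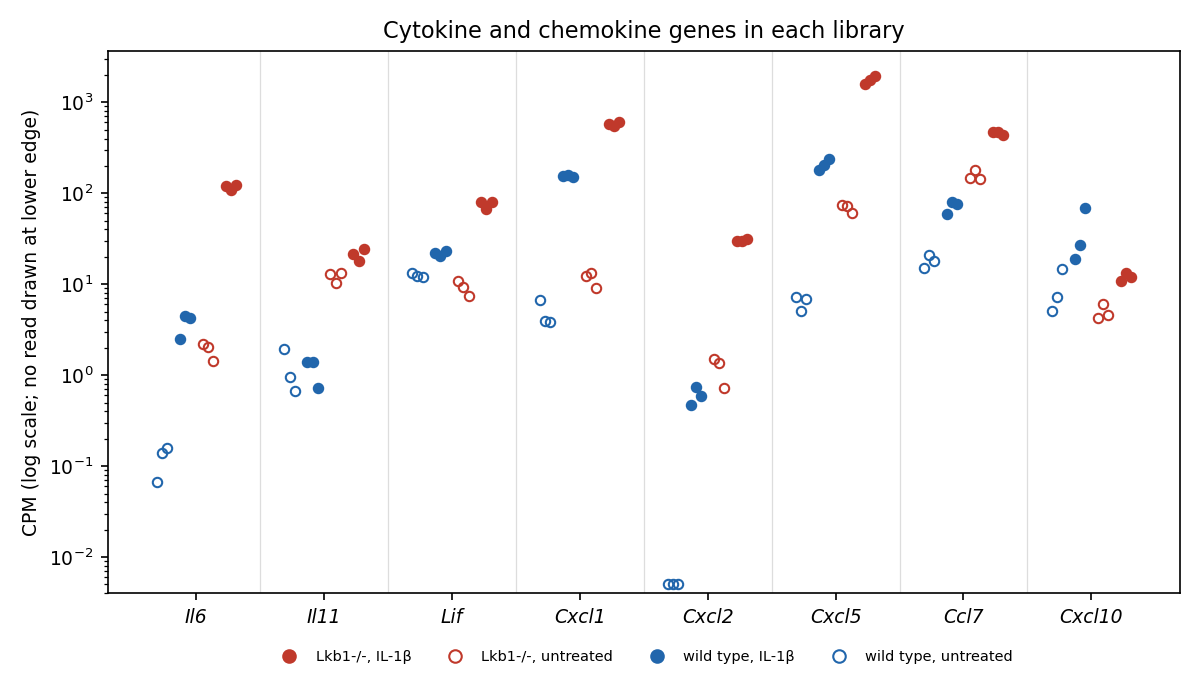
CPM on a log scale of cytokine and chemokine genes in each stimulated library (filled points) and each untreated library (open points), *Lkb1*-/- in red and wild type in blue. In the stimulated libraries all *Lkb1*-/- points of *Il6*, *Il11*, *Lif*, *Cxcl1*, *Cxcl2*, *Cxcl5* and *Ccl7* lie above all wild-type points, and those of *Cxcl10* lie below. A library with no read is drawn at the lower edge.

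For the promoters of *Il6*, *Il11*, *Lif* and *Cxcl1*, which were higher together, the RefSeq sequence of GRCm38.p6 from 250 bases before to 50 bases after the start site is shown on the strand of the gene. Capitals mark letters that match the full cyclic AMP-response element TGACGTCA, its first 5 letters TGACG, the AP-1 letters TGANTCA or the κB consensus, on either strand. *Il6* is at chr5:30012864-30013163 on the plus strand, *Il11* at chr7:4778092-4778391 on the minus strand (the second of the gene's 2 listed start sites), *Lif* at chr11:4257318-4257617 on the plus strand and *Cxcl1* at chr5:90890995-90891294 on the plus strand.
Il6: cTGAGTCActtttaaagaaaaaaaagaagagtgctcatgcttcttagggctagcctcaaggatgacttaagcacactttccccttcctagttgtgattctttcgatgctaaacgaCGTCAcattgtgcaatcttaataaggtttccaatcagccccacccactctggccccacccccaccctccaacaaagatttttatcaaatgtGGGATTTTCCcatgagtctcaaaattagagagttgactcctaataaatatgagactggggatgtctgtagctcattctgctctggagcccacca
Il11: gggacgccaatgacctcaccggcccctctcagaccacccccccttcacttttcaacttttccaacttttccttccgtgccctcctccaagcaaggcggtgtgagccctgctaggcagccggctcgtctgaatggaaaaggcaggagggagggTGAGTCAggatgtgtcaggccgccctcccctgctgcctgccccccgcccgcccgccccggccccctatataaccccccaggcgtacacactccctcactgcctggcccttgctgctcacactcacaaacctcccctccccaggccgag
Lif: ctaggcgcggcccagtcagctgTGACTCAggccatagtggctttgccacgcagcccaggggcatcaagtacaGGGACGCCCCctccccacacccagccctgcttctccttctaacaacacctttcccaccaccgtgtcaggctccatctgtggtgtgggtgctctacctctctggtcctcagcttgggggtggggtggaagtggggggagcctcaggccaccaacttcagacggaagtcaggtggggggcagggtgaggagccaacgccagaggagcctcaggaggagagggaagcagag
Cxcl1: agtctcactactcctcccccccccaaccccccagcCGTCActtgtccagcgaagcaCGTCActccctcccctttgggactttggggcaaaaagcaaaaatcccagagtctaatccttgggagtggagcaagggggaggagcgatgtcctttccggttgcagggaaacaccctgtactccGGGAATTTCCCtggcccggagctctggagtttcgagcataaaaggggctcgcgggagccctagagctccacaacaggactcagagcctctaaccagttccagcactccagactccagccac

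The *Il6* window held TGACG on the minus strand, TGANTCA and a κB match, the *Cxcl1* window held TGACG in 2 places on the minus strand and a pair of overlapping κB matches, the *Lif* window held TGANTCA and a κB match, and the *Il11* window shown held TGANTCA, while that of the gene's first listed start site, at chr7:4782808-4783107, held none of these motifs. None of the 4 windows shown held the full element of 8 letters, which says only that these letters are not in this window. Promoters were matched by symbol for 10887 of the genes tested. Among the genes called higher by over 1, 1875 had a promoter in the table, of which 2.40% held TGACGTCA and 26.2% held TGACG, beside 3.50% and 34.7% over all genes tested. TGANTCA stood in 8.91% and the κB consensus in 14.3% of these promoters, beside 6.70% and 12.5% over all genes. Genes called lower by over 1 had shares of 1.19%, 28.3%, 10.4% and 15.3% for the same 4 motifs in the same order. The TGACG element occurs in TGACGTCA as well, and a match of letters is a description and not a site.

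CXC chemokine genes were mostly higher. Of 15 CXC chemokine genes, 10 were tested, of which 8 were called higher, 7 by over 1, and 2 lower, with a median of 2.50 (2.25 with 1 gene at its bound). *Cxcl1*, a neutrophil attractant, was at 573, 548 and 611 CPM against 153, 157 and 152 CPM in wild type, a change of 1.91 ± 0.188 (SE) on the log2 scale at an edgeR FDR of 1.9e-08. *Cxcl5*, another neutrophil attractant, reached 1588, 1762 and 1939 CPM against 179, 204 and 237 CPM, a log2 fold change of 3.09. *Cxcl2* and *Cxcl3*, which lie in the same chromosome 5 cluster, rose by 5.64 and 4.91. Reads that match more than 1 of such related genes can be lost in counting. *Cxcl12*, a homeostatic chemokine of stromal cells, rose from 1.301 ± 0.147 CPM (SD, n = 3) to 50.97 ± 13.8 CPM. The members called lower were *Cxcl10* and *Cxcl11*, both attractants of T cells that interferon induces. *Cxcl10* was at 10.8, 13.2 and 11.9 CPM against 19.03, 26.8 and 68.2 CPM, a change of −1.67 ± 0.369 (SE) on the log2 scale at an edgeR FDR of 5.8e-04, which was −0.97 without wild-type replicate 3, the highest of the group.

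Of 18 CC and CX3C chemokine genes, 12 were tested, of which 5 were called higher, 2 lower and 5 not called. *Ccl7*, a monocyte attractant, rose by 2.69, from 58.7, 79.5 and 75.6 CPM to 468, 478 and 438 CPM, and *Ccl2*, another one, by 0.94. *Ccl20*, which attracts cells with the receptor CCR6, went the other way. It was at 61.2, 62.2 and 60.7 CPM in the wild-type libraries and had no read in the *Lkb1*-/- libraries, at least 893-fold lower. *Ccl9* fell by a log2 fold change of −1.06.

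Genes of the TNF family and other interleukins were called higher more often than lower. Of 29 TNF family ligands and receptors, 21 were tested, 13 were called higher and 2 lower, with a median of 1.13, or 0.64 with 3 genes at their bound. *Tnfsf11* (RANKL), the ligand that drives osteoclast formation, had 95.3, 129 and 150.5 CPM in the *Lkb1*-/- libraries and no read in the wild-type libraries, at least 1691-fold higher. The gene of its decoy receptor, *Tnfrsf11b*, also lacked wild-type reads, and it was at least 52.3-fold higher. *Tnf* itself had at most 4 counts in a library and was not tested. Of 16 other interleukins and colony-stimulating factors, 12 were tested, 7 were called higher (58.3%) and 4 lower (33.3%). Over all genes tested the shares were 30.2% and 27.1%. *Il33*, *Il18* and *Tslp*, cytokines released by barrier and stromal cells, rose by 4.75, 4.12 and 3.87, from wild-type means of 0.0509, 0.136 and 0.112 CPM. At such wild-type levels a gene could pass the filter on low counts through a group in which it was high. *Csf3*, which encodes the growth factor of neutrophils, was called higher by 1.14 in stimulated cells, and its untreated value was −1.06 (edgeR FDR = 0.205). It was not called without *Lkb1*-/- replicate 3 (0.94), wild-type replicate 1 (1.07) or wild-type replicate 2 (1.04). *Kitl*, the ligand of the receptor KIT, fell by a change of −1.60 ± 0.222 (SE) on the log2 scale at an edgeR FDR of 2.6e-06. Of 10 VEGF family genes, 6 were called higher and 3 lower. *Vegfa* rose by 2.19, with 212, 152 and 205 CPM against 41.6, 42.9 and 39.8 CPM, and *Flt1*, a VEGF receptor, fell by a log2 fold change of −3.21.

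The genes of the receptor and the proximal proteins through which IL-1β signals went in both directions. Of 22 genes of the IL-1 receptor pathway, 21 were tested, 7 were called higher and 6 lower, and the median of −0.01 turned positive with upper quartile normalization (0.09) and RLE size factors (0.02). *Il1r1*, the signaling receptor, was at 149, 193 and 184 CPM against 72.5, 102 and 98.5 CPM, a change of 0.95 ± 0.14 (SE) on the log2 scale at an edgeR FDR of 6.1e-06. The co-receptor gene *Il1rap* rose by 0.55. The inhibitors of the pathway also went both ways. *Il1rn*, the receptor antagonist, rose by 4.43, and *Irak3*, an inactive IRAK that damps signaling, was found with 3 reads in the wild-type libraries together against 1964 in the *Lkb1*-/- libraries, a ratio of 607 (95% counting interval 208 to 2950). *Tollip*, another inhibitor, fell by a log2 fold change of −1.002, and so did *Traf6* (−0.49), which carries the signal. *Il1b* had no read in the 6 libraries.

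NF-κB subunit and inhibitor genes all moved by under 1 with TMM scaling, 5 of 14 called higher and 4 lower, or 8 higher with upper quartile normalization. *Rela*, the main transactivating subunit, was not called (0.095), but was called higher with upper quartile normalization (0.20) and without replicate 1 of every group (0.17). *Nfkbia* and *Tnfaip3*, feedback inhibitors that NF-κB induces, rose by 0.54 and 0.99, and *Nfkbiz*, a coactivator of secondary response genes, by 0.64. *Rel* fell by a log2 fold change of −0.89. Of 11 factors that stabilize or destabilize messenger RNAs, which set how long cytokine transcripts persist, 1 was called higher and 5 lower. *Zfp36* (tristetraprolin), which binds AU-rich elements and speeds the decay of cytokine transcripts, was at 10.6, 11.2 and 11.4 CPM against 35.9, 32.6 and 37.6 CPM, a change of −1.68 ± 0.0815 (SE) on the log2 scale at an edgeR FDR of 2.4e-13. Its paralog *Zfp36l1* rose by 1.11 and *Zfp36l2* fell by a log2 fold change of −0.53. Of 11 AP-1 genes tested, 3 were called higher and 3 lower. *Fosl2* rose by 2.40 and *Fosl1* by 0.79, whereas *Atf3* fell from 17.6, 16.9 and 16.03 CPM to 1.99, 2.08 and 2.11 CPM (−3.03).

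Effector genes known to respond to IL-1 were higher in 14 of 17 tested, 13 of them by over 1, with a median of 3.24. With at least 10 counts required in every library, 8 members were tested, 6 were called higher and 1 lower, and the median was 1.25. *Nos2*, the inducible nitric oxide synthase, was at 59.99, 122 and 126 CPM against 7.8, 18.6 and 26.6 CPM, a change of 2.54 ± 0.382 (SE) on the log2 scale at an edgeR FDR of 1.2e-05. *Lcn2*, which binds bacterial siderophores, was at 33.7, 66.8 and 74.6 CPM against 1.11, 5.63 and 5.25 CPM (3.87). *Mmp13* and *Mmp3*, matrix-degrading enzymes, rose by 6.11 and 5.72. *Ch25h*, which makes 25-hydroxycholesterol, had 2 reads in the wild-type libraries together and 3578 in the *Lkb1*-/- libraries, a ratio of 1660 (95% counting interval 459 to 13700). The member called lower was *Vcam1*, an adhesion molecule for leukocytes, which fell from 245, 273 and 277 CPM to 31.1, 50.4 and 38.5 CPM (−2.73, edgeR FDR = 6.9e-10). The untreated median of this list was 4.89. In the test of the difference between stimulated and untreated cells, 2 members were called by edgeR, 5 by DESeq2 and 6 with the replicate block. In the prostaglandin pathway 11 of 15 genes tested were called higher and 3 lower, with a median of 5.10, which was 1.59 with 4 genes at their bound and 2.59 with unstranded counts. *Ptgs2* (COX-2), the inducible enzyme, rose by 1.07, and *Ptgs1*, the constitutive one, by 7.57, with 174, 131 and 153 CPM against 1.11, 0.514 and 0.802 CPM.

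Interferon-stimulated genes were lower in *Lkb1*-/- MEFs in most cases, and the size of the fall rested in part on 1 wild-type library. Of 36 genes, all of which were tested, 32 were called lower, 28 of them by over 1, and 4 were not called, with a median log2 fold change of −1.83. Their summed level was 599, 825 and 827 CPM in the *Lkb1*-/- libraries and 1010, 1450 and 2910 CPM in the wild-type libraries, without overlap. Wild-type replicate 3 stood highest, and untreated wild-type replicate 3 did so too, with 1630 CPM beside 689 and 841 CPM in untreated wild-type replicates 1 and 2 and 600 to 740 CPM in the untreated *Lkb1*-/- libraries. Without stimulated wild-type replicate 3, 24 members were called lower and 1 higher, and the median was −1.08. With any other stimulated library left out 29 to 32 were called lower, with medians between −2.08 and −1.74. The largest falls were in *Oas2*, an enzyme that senses double-stranded RNA, at 0.1199, 0.0415 and 0.144 CPM against 2.59, 7.07 and 30.5 CPM (−7.03), and in *Irf7*, the transcription factor that amplifies interferon production, at 0.2399, 0.395 and 0.2399 CPM against 4.79, 10.8 and 39.8 CPM (−5.95). *Isg15*, a ubiquitin-like modifier, was at 4.03, 5.73 and 5.95 CPM against 8.69, 19.1 and 72.7 CPM, a change of −2.67 ± 0.628 (SE) on the log2 scale at an edgeR FDR of 9.9e-04. Without wild-type replicate 3 the values of *Oas2*, *Irf7* and *Isg15* were −5.59, −4.75 and −1.44, and all were called. *Ifit1*, an inhibitor of viral translation, was at 9.55, 16.9 and 13.5 CPM against 9.31, 21.2 and 78.6 CPM (−1.45, edgeR FDR = 0.0491). It was not called without wild-type replicate 3 (−0.23) or without *Lkb1*-/- replicate 1 (−1.25), 2 (−1.66) or 3 (−1.49). The call was also lost with RLE size factors (−1.43), upper quartile normalization (−1.34) and DESeq2 (−1.43). The same held with only the groups compared (−1.41) and with at least 10 counts required in every library (−1.38). The members not called were *Irf1* (0.18), *Gbp2* (1.04), *Gbp3* (−0.91) and *Zbp1* (−0.24). With the replicate block *Irf1* (0.18) and *Gbp2* (1.14) were called higher and *Gbp3* (−0.72) lower, so that the list had 33 members called lower and 2 higher. *Gbp2* was also called without wild-type replicate 3 (1.58). The untreated libraries gave a median of −1.06 for the same genes, and in edgeR's test of the difference between the 2 conditions 1 member had an unadjusted p under 0.05, with 0 called after adjustment, 0 by DESeq2 and 2 with the replicate block. The receptor genes of type I interferon went the other way, *Ifnar1* higher by 1.16 and *Ifnar2* by 1.63, whereas the signal transducer *Stat2*, itself interferon-induced, fell by a log2 fold change of −1.20, or −0.77 without wild-type replicate 3. Of 14 JAK-STAT and SOCS genes tested, 3 were called higher and 5 lower. *Socs2*, a feedback inhibitor of growth hormone signaling, fell from 35.8, 36.9 and 37.8 CPM to 0.696, 0.603 and 0.408 CPM and *Socs3*, the inhibitor of gp130 signaling, rose by 1.28.

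The genes of cholesterol synthesis and uptake were lower. Of 25 genes, 23 were called lower, 19 of them by over 1, and 1 was called higher, with a median of −1.42. *Hmgcs1*, an early enzyme of the pathway, was at 217, 168 and 191 CPM against 589, 802 and 706 CPM, a change of −1.86 ± 0.165 (SE) on the log2 scale at an edgeR FDR of 3.5e-09. *Hsd17b7*, which acts late in the pathway, fell most (−2.15), and *Mvd* fell by a log2 fold change of −1.73. *Srebf2*, the transcription factor of the pathway, was not called (0.062). Fatty acid synthesis shared the direction by a smaller amount, with 11 of 12 genes called lower and a median of −0.60. *Fasn*, fatty acid synthase, had a log2 fold change of −0.92 and *Acly*, which supplies its acetyl-CoA, of −0.87, whereas *Scd1* was not called (0.025).

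For some of the cholesterol genes the genotype difference itself differed between stimulated and untreated cells. Their summed level was 2680, 2220 and 2580 CPM in stimulated and 3970, 4270 and 4410 CPM in untreated *Lkb1*-/- libraries, and 5040, 6100 and 5740 CPM in stimulated and 4780, 6060 and 5660 CPM in untreated wild-type libraries. In the test of the genotype difference with IL-1β minus the genotype difference untreated, 43 genes were called, 24 (0.137%) above and 19 (0.108%) below, and 7 of the 25 cholesterol genes were among the 19. DESeq2 called 15 of the 25, and the fit with the replicate block 21. The untreated median of the list was −0.53. *Hmgcs1* had an untreated genotype difference of −0.52 and a stimulated one of −1.86, a difference of −1.35 (SE 0.227, edgeR FDR = 0.00779). Its level was 699 CPM in stimulated and 652 CPM in untreated wild-type cells, and 192 and 456 CPM in *Lkb1*-/- cells. *Fdft1*, the enzyme that makes squalene, was higher in untreated *Lkb1*-/- cells (0.70) and lower in stimulated ones (−0.32). *Insig1*, *Cyp51* and *Lss* had differences of −1.08, −1.04 and −0.94. In the fit without a replicate block these calls were at the edge of the threshold. With 1 library left out, those of *Insig1*, *Cyp51* and *Lss* were lost in 9 of 12 cases and that of *Hsd17b7* in 8 of 12. The edgeR FDR was up to 0.134 in these cases, and the differences stayed negative. The call of *Fdft1* in stimulated cells was lost without *Lkb1*-/- replicate 2 (−0.25) or wild-type replicate 2 (−0.26), with upper quartile normalization (−0.22) and with at least 10 counts required in every library (−0.25). The count of 43 depended on how the replicates were treated. Replicate numbers paired the libraries, and with the replicate number as a block 311 genes were called, 131 above and 180 below. It was 147 with replicate 1 left out of every group, 23 without untreated *Lkb1*-/- replicate 2 or 3, 25 without stimulated *Lkb1*-/- replicate 3 and 28 without stimulated wild-type replicate 2.

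*Lif* had the largest difference of the genes named by the rule for this test. Its untreated genotype difference was −0.44 and its stimulated one 1.80, a difference of 2.24 (SE 0.209, edgeR FDR = 7.0e-06), and it was the 1 IL-6 family ligand called in this test. *Tbx3*, a T-box transcription repressor, was at 80.7, 77.9 and 89.05 CPM against 25.8, 23.8 and 23.4 CPM in stimulated cells, with a difference of 1.49 (SE 0.115, edgeR FDR = 4.8e-07) from the untreated value of 0.27. *Lmo4*, a LIM-domain adaptor of transcription factors, and *Gdnf*, a neurotrophic factor, had differences of 1.38 and 1.19. The call of *Gdnf* was lost with unstranded counts, where its difference was 0.56, and in 7 of 12 cases with 1 library left out. Over those 12 cases its difference lay between 1.08 and 1.37. *Sema3c*, a secreted guidance molecule, was lower untreated (−0.997) and higher with IL-1β (0.32). *Cpeb2*, an RNA-binding protein, had a difference of 1.20. Its call was lost in 5 of 12 such cases, and its difference lay between 1.14 and 1.34 over the 12. The stimulated value of *Sema3c* was not called without wild-type replicate 3 (0.18), wild-type replicate 2 (0.28) or any 1 *Lkb1*-/- library (0.27 to 0.33). *C3*, the central complement component, was higher in *Lkb1*-/- cells in both conditions, but by 3.24 with IL-1β and 5.36 without it (difference −2.12, edgeR FDR = 0.008). Most genotype differences were present in both conditions. Of the 10050 genes called in stimulated cells, 8737 (86.9%) were called in the same direction in untreated cells, which is 89.2% of the 9798 genes called there, and 6 were called in opposite directions.

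**Figure D3:**
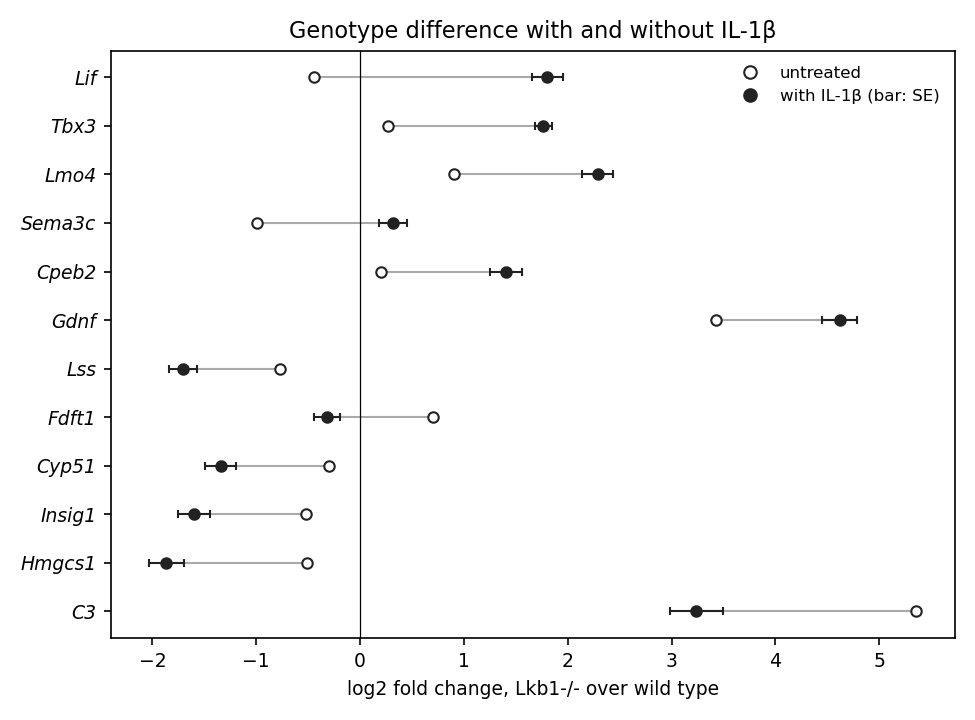
Log2 fold change of *Lkb1*-/- over wild-type MEFs without IL-1β (open points) and with IL-1β (filled points) for the 12 genes named by the rule for this test. The filled point lies to the right of the open one for *Lif*, *Tbx3*, *Lmo4*, *Sema3c*, *Cpeb2* and *Gdnf* and to the left for the other 6, of which *Hmgcs1*, *Insig1*, *Cyp51*, *Fdft1* and *Lss* belong to the cholesterol genes. Bars are standard errors of the stimulated log2 fold change.

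Several growth-related groups had more genes called lower than higher, mostly by small amounts. Abundant genes leaned the same way, since 44.5% of those with a mean log2 CPM over 6 were called lower and 21.1% higher. Of 28 genes of ribosome biogenesis and MYC targets, 27 were tested, 23 were called lower and 4 were not called, with a median of −0.59. *Myc*, the transcription factor of growth, was at 148, 152 and 140.3 CPM against 294, 258 and 258 CPM, a change of −0.88 ± 0.122 (SE) on the log2 scale at an edgeR FDR of 2.5e-06. *Wdr12* and *Utp20*, factors of ribosomal RNA processing, fell most (−1.33 and −1.21). Of 20 aminoacyl-tRNA synthetases of the cytosol, 16 were called lower and 4 were not called (median −0.39). Of 77 cytosolic ribosomal protein genes tested, 44 were called lower and 1 higher (median −0.30). Among 25 TCA cycle genes, 19 were called lower and 1 higher (median −0.44), with *Fh1*, fumarase, at −1.24 and *Cs*, citrate synthase, at −1.09. Subunits of oxidative phosphorylation went both ways, 16 of 78 tested called higher and 35 lower (median −0.12). These shares, 20.5% higher and 44.9% lower, were near those of all genes tested with a mean log2 CPM over 6, which were 21.1% and 44.5%. The shares called lower were 85.2% for ribosome biogenesis, 80% for the synthetases, 57.1% for ribosomal proteins and 76% for the TCA cycle. Genes of equal level were not set beside these groups. The medians of these 5 groups stayed negative under every scaling tried, but that of oxidative phosphorylation was −0.015 with upper quartile normalization. Proliferation markers had 5 members called higher, 3 lower and 6 not called, all with changes under 1, and 3 called higher without *Lkb1*-/- replicate 2 or 3. Of 13 mitochondrially encoded genes, 7 were tested, and edgeR and DESeq2 called 0 of them, with 0 at an unadjusted p under 0.05. With the replicate block 4 were called lower, and without replicate 1 of every group 5.

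Glycolysis differed gene by gene, with 11 of 23 called higher and 3 lower. *Pdk1*, the kinase that closes the entry of pyruvate into the TCA cycle, rose from 9.23, 25.99 and 22.3 CPM to 99.2, 152 and 147 CPM (2.79). *Slc16a1*, a lactate transporter, fell by a log2 fold change of −1.11, and *Ldhb*, the heart form of lactate dehydrogenase, was at 3.93 CPM in *Lkb1*-/- and 0.0169 CPM in wild-type cells. Of the p53 pathway, 12 of 18 genes tested were called lower and 3 higher. *Trp53* was at 287 CPM against 409 CPM (−0.51), and *Fas*, a death receptor, was higher by 1.89.

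**Figure D4:**
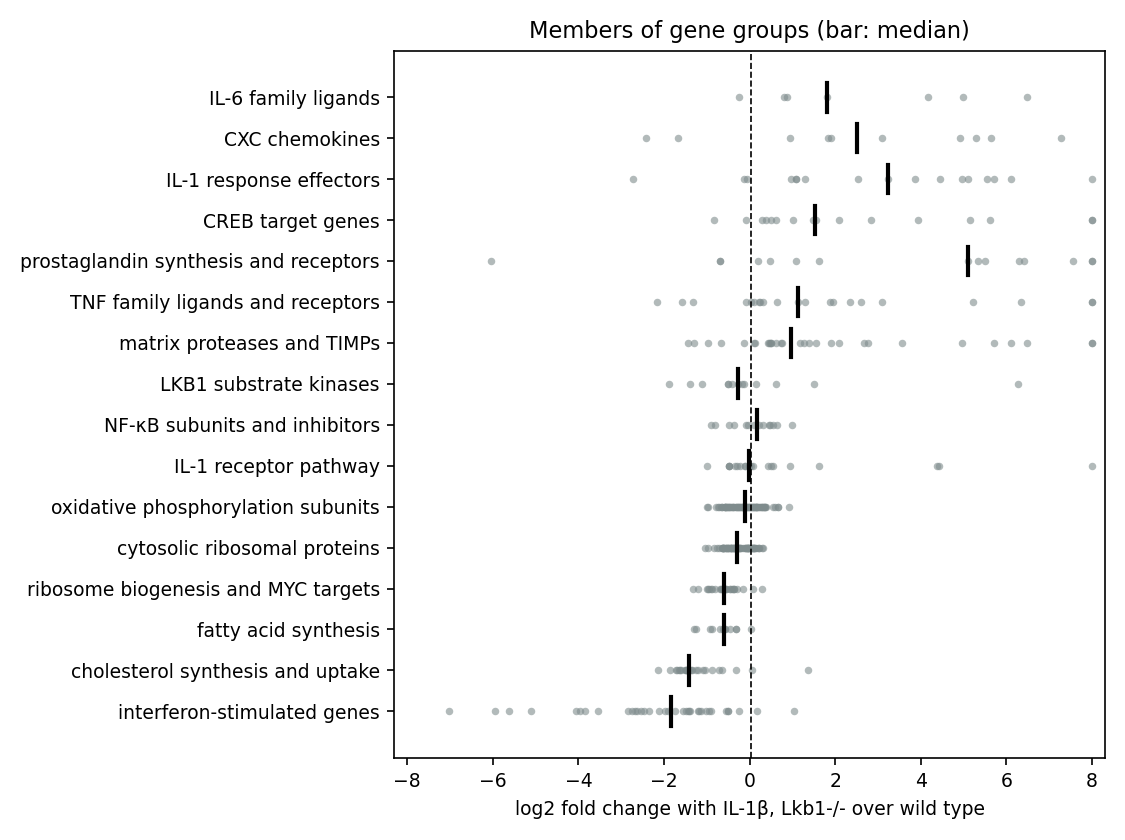
Log2 fold change of every tested member of 16 gene groups in stimulated *Lkb1*-/- over wild-type MEFs, 1 point per gene and 1 row per group, with the group median as a black bar and the median of all genes tested (0.03) as a dashed line. The axis ends at −8 and 8 and points beyond it are drawn at its ends. The points of the interferon-stimulated and cholesterol genes lie mostly to the left, and those of the IL-6 family ligands, CXC chemokines and IL-1 response effectors mostly to the right.

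Matrix genes differed by large factors in both directions. *Col6a1*, *Col6a2* and *Col6a3*, the chains of collagen VI, were at 292, 162 and 130.5 CPM in the *Lkb1*-/- libraries and at 1.13, 0.168 and 0.185 CPM in the wild-type libraries, log2 fold changes of 8.001, 9.85 and 9.41. *Col1a2*, a chain of collagen I, went the other way, at 28.5, 49.9 and 45.1 CPM against 447, 685 and 588 CPM (−3.80), while *Col1a1*, the other chain, fell by a log2 fold change of −0.63 and was not called without *Lkb1*-/- replicate 1 (−0.49) or wild-type replicate 2 (−0.47). Of 21 collagen genes tested, 9 were called higher and 8 lower. The proteoglycan genes *Vcan* and *Dcn* rose by 9.37 and 8.53, with means of 1393 and 547 CPM in *Lkb1*-/- cells against 2.101 and 1.47 CPM. *Fbln5* and *Nid2*, of elastic fibers and basement membranes, fell by log2 fold changes of −7.18 and −8.22. *Mmp2*, a gelatinase, had 2 reads in the wild-type libraries together and 61706 in the *Lkb1*-/- libraries, a ratio of 28600 (95% counting interval 7920 to 236000). Of 30 matrix protease and TIMP genes tested, 18 were called higher and 4 lower.

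Genes of the contractile apparatus were mostly lower, 7 of 12 tested called lower and 1 higher. *Acta2*, smooth muscle actin, was at 12.9, 20.5 and 12.8 CPM against 407, 659.7 and 435 CPM, a change of −5.02 ± 0.315 (SE) on the log2 scale at an edgeR FDR of 1.5e-11. *Myl9* and *Tagln*, a myosin light chain and an actin-binding protein, fell by log2 fold changes of −4.51 and −2.23, of which *Tagln* was not called with unstranded counts (−0.62), which also hold reads of the opposite strand. *Ccn2*, a matricellular target of YAP and TGF-β, was at 7.41, 4.42 and 4.27 CPM against 220, 231 and 187 CPM (−5.31).

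Many of the 20 genes with the largest changes at a mean log2 CPM above 3 had few or no reads in 1 of the groups. In the upward direction *Pde3b*, a phosphodiesterase, *Ackr3*, a scavenging receptor of CXCL12, and *Stmn2*, a regulator of microtubules, had 2, 3 and 3 wild-type reads in all against 20888, 19572 and 16804 reads. Others were *Mmp2*, *Col6a2* and *Col6a3* (above) and *Armcx2*, *Grem1*, a BMP antagonist, and *Slc7a2*, an arginine transporter, with log2 fold changes of 11.32, 10.66 and 9.99. In the downward direction *Hoxd13* had no read in *Lkb1*-/- cells and 216, 231 and 228 CPM in wild-type cells, at least 3274-fold lower. *Fhl1*, a LIM-domain protein, had 3 reads in *Lkb1*-/- and 18555 in wild-type cells. *Zfhx4*, *Nup210*, *Lgals3bp*, *Cryab*, *Arhgdib* and *Lipg* had log2 fold changes between −7.88 and −5.13, and *Ccn2* and *Acta2* completed the 10. All 20 genes that the rule names here had an untreated log2 fold change of the same sign.

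Hox genes, which keep a record of the body position a fibroblast came from, separated the lines by cluster. No gene of the *Hoxb* and *Hoxc* clusters was tested, with at most 4 counts in a library. All 11 tested *Hoxa* genes were present in both lines, and 4 were called with changes under 1 and *Hoxa7* with a log2 fold change of −1.60. The 6 tested *Hoxd* genes were called lower. *Hoxd9*, *Hoxd10* and *Hoxd11* had no read in *Lkb1*-/- cells and 0.425, 6.35 and 12.4 CPM in wild-type cells, like *Hoxd13*.

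The lines also differed in Y-linked transcripts. *Ddx3y* was at 88.9, 91.7 and 96.03 CPM in the *Lkb1*-/- libraries and at 0.0987, 0.0233 and 0.0259 CPM in the wild-type libraries. *Kdm5d* had no wild-type read (at least 558-fold higher in *Lkb1*-/- cells), and *Uty* and *Eif2s3y* had 1 and 1 wild-type read against 8439 and 6875. *Xist*, the RNA that coats an inactive X chromosome, had at most 8 counts in a library and was not tested. Of the 9 Y-linked genes tested, 88.9% were called higher. A gene without wild-type reads could pass the filter on low counts only through the other groups. This share thus depended on the filter and is no separate result.

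**Figure D5:**
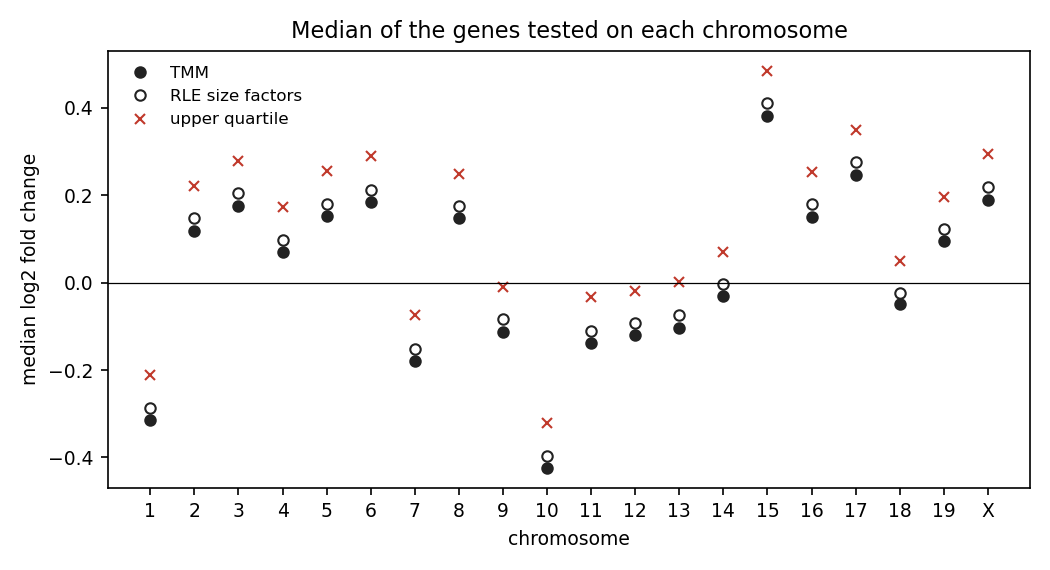
Median log2 fold change of the tested genes of each autosome and the X chromosome in stimulated *Lkb1*-/- over wild-type MEFs with TMM scaling (filled points), RLE size factors (open circles) and upper quartile normalization (crosses). With TMM the medians lie between −0.42 for chromosome 10 and 0.38 for chromosome 15.

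The shares of genes called higher and lower differed between chromosomes. Some were balanced, such as chromosome 14 with 30.7% called higher and 30.4% lower. Chromosome 10, which holds *Stk11*, had the lowest median log2 fold change among autosomes, −0.42 over 814 genes tested, with 18.6% called higher and 50.2% lower. Chromosome 1 followed with −0.31 over 1098 genes. Chromosome 15 had the highest, 0.38 over 706 genes, with 47.6% called higher and 11.8% lower, and chromosome 17 had 0.25. The untreated medians were −0.44, −0.29, 0.40 and 0.26 for the same 4 chromosomes. These chromosomes kept their order and sign under RLE size factors and upper quartile normalization, whereas the medians of chromosomes 13, 14 and 18 turned from negative to positive under the last one. The log2 fold change of a gene is given without correction for this shift.

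The label of fibroblasts was checked against marker genes. Of 12 fibroblast markers, *Vim* was at 1896 and 2721 CPM, *Col1a1* at 1161 and 1799 CPM and *Prrx1* at 188 and 338 CPM in *Lkb1*-/- and wild-type cells, and their summed level was 4114 to 5229 CPM in the *Lkb1*-/- and 5415 to 6556 CPM in the wild-type libraries. *Thy1*, *Fap* and *Lum* were near 0 in both lines and not tested, with at most 7 counts, and *Pdgfra* was at 295 CPM in *Lkb1*-/- and 5.31 CPM in wild-type cells. The markers of most other cell types were low. The 9 epithelial markers summed to under 2.22 CPM in every library, and 2 were tested. The 9 macrophage and leukocyte markers summed to 17.0 to 21.6 CPM in the *Lkb1*-/- and 20.2 to 26.6 CPM in the wild-type libraries, most of it *Cd14* (−0.40), and *Ptprc*, *Adgre1*, *Itgam* and *Tyrobp* had at most 2 counts. The 7 endothelial markers summed to at most 3.10 CPM, the 6 muscle markers to at most 0.312 CPM and the 6 adipocyte markers to at most 14.4 CPM. The 6 neural markers summed to 134.7 to 153.1 CPM in the *Lkb1*-/- and 182.7 to 204.9 CPM in the wild-type libraries, from *Nes* and *Map2*, of which *Map2* was called lower with the replicate block (−0.26) and without *Lkb1*-/- replicate 3 (−0.42). The cartilage and bone markers summed to 263.3 to 270.7 CPM in the *Lkb1*-/- and 104.6 to 111.9 CPM in the wild-type libraries. *Sox9*, the cartilage factor, rose by 1.45, and *Acan*, aggrecan, had 1 wild-type read and 81.6 CPM in *Lkb1*-/- cells, whereas *Col2a1* and *Sp7* were near 0 in both. In bulk RNA, fewer cells of a type and less RNA per cell cannot be told apart, and the part of these markers in the results was not tested.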

How the data were processed

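RNA from 24 libraries of 3T3 MEFs was sequenced, 3 for each of 8 groups of genotype and treatment, of which the 6 stimulated wild-type and *Lkb1*-/- libraries are described and 6 untreated ones are given beside them. Per the study's methods and the labels, the authors trimmed reads with Trim Galore 0.6.0 and aligned them to GRCm38 (mm10) with STAR 2.7.8a, and they deposited raw counts per gene for each strand setting. The labels name a messenger RNA kit and the methods a kit with ribosomal RNA depletion, so that the library preparation is uncertain. Counts of the second strand were used, since they held over 95% of stranded reads (95.6% to 95.9% in the stimulated libraries), and the 4 lines of reads with no gene were left out, 28.3% to 34.4% of the counts of these 6 libraries.

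Counts were fitted with edgeR 4.0.16 in R 4.3.3 (quasi-likelihood test in its older form, TMM scaling, 1 coefficient per group, all 24 libraries). Genes were filtered on low counts by group (minimum count 10, minimum total 15) and called at an FDR under 0.05. The test was also run on simulated counts, drawn with the same spread for every gene and no replicate effect. That run cannot show how the test behaves with the replicate differences of these libraries. The SE of a log2 fold change was derived from its F statistic. A fold against a group without a read was computed with 3 counts per library. Counting intervals are exact binomial ones and cover counting error only. P-values measure the spread between libraries of 1 line per genotype.

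Genes named were *Stk11*, the 10 largest changes in each direction at a mean log2 CPM above 3 without overlap, the IL-6 family ligands, LKB1 substrate kinases, markers and sex-linked genes, the first and the most changed members of the other lists, and up to 6 genes in each direction for the difference between conditions. The members and lists were chosen with earlier results of these data known. *Cxcl5*, *Cxcl11*, *Csf3*, *Srebf2*, *Scd1*, *Irf1*, *Gbp2*, *Gbp3*, *Zbp1*, *Ifnar1*, *Ifnar2*, *Hoxa7* and the *Hoxd* genes lay outside this rule or were chosen after their values were seen. Symbols and positions were from GENCODE M21 (GRCm38), with a symbol for 55144 identifiers and none for 327. Some genes that the rule names are not reported here. Promoters came from a RefSeq table of GRCm38.p6 and were matched by symbol.

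Deviations from the group means of same-numbered libraries of the 2 stimulated groups correlated at 0.597, 0.424 and 0.461 across 9362 genes (genes are not independent replicates), so that replicate numbers were taken to pair the libraries, and the fit with a replicate block was an alternative. Others were unstranded counts, RLE size factors, upper quartile normalization, other filters, the newer quasi-likelihood form, DESeq2 1.42.0, only the groups compared, leaving out each library in turn and, chosen after seeing the data, leaving out replicate 1 of every group.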

Additional observations from a re-analysis of the deposited data

Results flagged for a closer look

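For 13 of the genes named, the genotype difference with IL-1β differed from the untreated one in edgeR's test of that difference. On the log2 scale the stimulated difference exceeded the untreated one by 2.24 for *Lif*, 1.49 for *Tbx3*, 1.38 for *Lmo4*, 1.31 for *Sema3c*, 1.20 for *Cpeb2* and 1.19 for *Gdnf*. It was below the untreated one in the other genes, with values of −2.12 for *C3*, −1.35 for *Hmgcs1*, −1.08 for *Insig1*, −1.04 for *Cyp51*, −1.02 for *Fdft1*, −0.94 for *Lss* and −0.88 for *Hsd17b7*. The direction was the same for all 13 with any 1 of the 12 libraries left out. The calls of *Cyp51*, *Insig1*, *Lss*, *Hsd17b7*, *Gdnf* and *Cpeb2* were lost in some of those cases.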

How the results depend on the processing

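The 10050 genes called between the stimulated lines ranged from 7999, with at least 10 counts in every library, to 11550, with the replicate block, and from 9288 to 9662 with 1 library left out. The 4280 genes that also changed by over 1 became 2043 with at least 10 counts in every library, a filter that removes genes absent from 1 line by its construction, and were 4159 to 4281 with 1 library left out. The same filter kept 8 of 17 IL-1 response effectors, with a median of 1.25. The 43 genes called in the difference between conditions became 76 with upper quartile normalization, 347 with no filter on low counts, 70 with at least 10 counts in every library, 121 with DESeq2, 70 with only the groups compared, 147 without replicate 1 of every group and 23 to 57 with 1 library left out, and the cause was not tested. With the replicate block the 3 counts were 11550, 4403 and 311, and among the 185 genes named the block ended 0 calls and added 7, of *Irf1*, *Gbp2*, *Gbp3*, *Il6st*, *Mark4*, *Prkaa1* and *Map2*. Of 2907 log2 fold changes of these genes under the alternatives, 2841 kept their direction and their side of the threshold, 32 were no longer called, 26 became called and 8 turned their sign. Those 8 belonged to genes not called, namely *Scd1* with unstranded counts (−0.031), without *Lkb1*-/- replicate 3 (−0.123) and without wild-type replicate 1 (−0.066), *Srebf2* without *Lkb1*-/- replicate 3 (−0.0265), *Zbp1* with the replicate block (0.0872), without *Lkb1*-/- replicate 1 (0.0336) and without wild-type replicate 3 (1.07), and *Col2a1* without wild-type replicate 3 (0.297). With 1 library left out these 4 genes ranged from −0.123 to 0.138, from −0.0265 to 0.11, from −0.739 to 1.07 and from −1.06 to 0.297. Differences within the counting error of genes near 0 were not detectable at this depth.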

Other observations

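Growth factor and morphogen systems also differed between the stimulated lines. Of 42 genes of the TGF-β superfamily, 35 were tested, 15 were called higher and 13 lower. *Tgfb2*, a ligand, stood at 5.83, 7.13 and 7.65 CPM in the *Lkb1*-/- and 12.02, 13.5 and 9.05 CPM in the wild-type libraries (log2 fold change −0.75). *Fstl3*, an inhibitor of activin, was at 0.192, 0.353 and 0.216 CPM against 14.8, 14.1 and 13.8 CPM (−5.77), while the activin subunit *Inhba* was higher (5.62). *Nog*, a BMP antagonist, fell by a log2 fold change of −4.46, whereas *Grem1*, another one, rose. Of 24 Wnt ligands and modulators, 19 were tested, 11 were called higher and 5 lower. *Wnt10b*, a ligand, was at 2.903, 2.76 and 2.95 CPM against 19.6, 18.6 and 21.3 CPM (−2.79), and *Lef1*, a transcription factor of the pathway, was at 9.43, 12.5 and 13.9 CPM against 0.173, 0.4203 and 0.388 CPM (5.18). Of 12 hedgehog genes tested, 8 were called higher and 2 lower. *Ptch1*, the hedgehog receptor and a target of the pathway, was at 163, 223 and 228 CPM against 82.6, 95 and 83.5 CPM (1.23). Of 8 genes of the IGF axis tested, 3 were called higher and 4 lower. *Igfbp4*, which binds insulin-like growth factors, stood at 182 CPM in *Lkb1*-/- and 0.4998 CPM in wild-type cells (8.52). Of 11 EGF ligands and receptors tested, 5 were called higher and 3 lower, with log2 fold changes from −2.31 to 3.62. The ligand *Ereg* was at 452, 402 and 468 CPM against 149.5, 133 and 116 CPM (1.73) and *Nrg1* rose by 3.38.

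Of 52 axon guidance ligands and receptors, 47 were tested, 26 were called higher and 12 lower. *Slit3*, a repellent, had 54.1, 78.96 and 70.6 CPM in *Lkb1*-/- cells and no read in wild-type cells, at least 919-fold higher, whereas *Sema3e*, a semaphorin, was at 12.3, 13 and 15.1 CPM against 64.5, 69.8 and 70.2 CPM (−2.34). Of 15 genes tested among aldehyde dehydrogenases, the cytochrome P450 1 family and related genes, 11 were called higher and 3 lower. *Cyp1b1*, an oxidizing enzyme, was at 1053, 1259 and 1189 CPM against 64.1, 78.3 and 95.7 CPM (3.88, SE 0.135, edgeR FDR = 9.5e-16), and *Cyp1a1*, its relative, rose by 6.29. *Ahrr*, a repressor of the aryl hydrocarbon receptor, was lower, at 0.072, 0.104 and 0.072 CPM against 11.5, 13.8 and 17.02 CPM (−7.35). Of 32 genes of the unfolded protein and integrated stress response, 3 were called higher and 16 lower. *Nupr1*, a stress-induced chromatin protein, was at 6.67, 8.48 and 8.23 CPM against 49.1, 49.5 and 55.5 CPM (−2.72), and *Dnajc3*, a chaperone of the endoplasmic reticulum, fell by a log2 fold change of −2.15. Of 16 genes of MHC class I presentation, 4 were called higher and 6 lower, and 3 were called lower without wild-type replicate 3.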
